A study of Oryza sativa with 6 samples.

Results

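Cysteine proteases and vacuolar processing enzymes were examined in the grain transcripts of a rice mutant and its wild type. The genes were chosen by name, from the first name in the deposited description, which had to speak of a cysteine protease or proteinase, a cysteine endopeptidase, an oryzain, a cathepsin, a thiol protease or a vacuolar-processing enzyme, and not of an inhibitor. This found 38 of the 55986 rows of the table. The rule used no expression value, although earlier results of these data were known when the genes were chosen. The study compared 3 libraries of the wild type line Zhenong 34 with 3 libraries of the mutant sg34, all from grains at the mature period with no other treatment stated. The labels name neither a mutated gene nor an allele, so no targeted gene could be looked at first, and they do not say whether replicates came from separate plants, and the p-values below therefore rest on a spread between libraries that may be technical.

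These enzymes cut proteins with a cysteine in the active site. Papain-type proteases, to which the oryzains of rice seeds belong, are made as inactive precursors whose propeptide (the I29 domain) blocks the active site until it is removed, and in cereal grains they are best known for breaking down storage proteins during germination. Vacuolar processing enzymes, also called legumains, cut behind asparagine residues and, in the filling endosperm, cleave proglutelin into the acidic and basic glutelin chains of the protein storage vacuole. ATG4 proteases trim and recycle ATG8 in autophagy, and the calpain ADL1, the rice DEK1 protein, acts in epidermal cell fate.

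Levels are given as the deposited TPM, the share of a transcript in its library corrected for its length. Such shares carry no information on read depth, which is unknown, so no counting interval is given. Differences are log2 differences, mutant minus wild type, of log2(TPM + 1) after each library was rescaled by a trimmed mean, with limma p-values adjusted over all 16917 rows that had at least 1 TPM in at least 3 libraries. They understate the change of low genes. The rescaling divisors ran from 0.850 to 1.66 in the wild type and from 0.702 to 1.07 in the mutant, so a gene can have the higher mean TPM in the wild type and a log2 difference above 0. The median log2 difference of all tested rows was -0.008, and -0.44 without rescaling. All 7 endosperm markers were present in every library, with summed TPM of 25443 to 82591 in the wild type and 82025 to 93556 in the mutant, the lowest being wild type replicate 1. Glutelin LOC_Os01g55690 and globulin LOC_Os05g41970 made up most of each sum and were lowest in that library (4333 and 17225 TPM). LOC_Os07g08420 was also lowest there (103.6 TPM), whereas LOC_Os02g15350 and LOC_Os01g01470 were at their wild type maximum (561.9 and 165.7 TPM). LOC_Os06g04200 and LOC_Os01g29840 were lowest in wild type replicate 3. LOC_Os02g15350 was lower in every mutant library, LOC_Os05g41970 and LOC_Os07g08420 overlapped, and the other markers were higher. The 2 oil body markers of embryo and aleurone summed to 990.5 to 4109 TPM in the wild type and 2178 to 3277 TPM in the mutant. Green tissue markers (2 Rubisco small subunit genes and 1 light-harvesting gene) summed to 247 TPM in wild type replicate 1, to 8.36 and 34.2 TPM in the other wild type libraries and to 20.7, 65.4 and 54.8 TPM in the mutant. The Rubisco genes made the high sum, while the light-harvesting gene was highest in mutant replicate 2 (35.8 TPM, against 22.1 TPM in wild type replicate 1). The part of these markers in the results was not tested. In whole grains, fewer cells of a type and less RNA per cell cannot be told apart.

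Of the 38 genes, 18 were tested, 12 had values above 0 but stayed below the filter, and 8 were listed at 0 in all 6 libraries. By their deposited domains, 29 were papain-type (11 tested), 5 were vacuolar processing enzymes (3 tested), 2 were ATG4 proteases and 1 was a calpain, all 3 tested, and 1, also tested, had the I29 propeptide domain alone. A single gene fell and no gene rose: 1 of 18 was lower by the limma test, where 1.87% of all tested rows were, and 0 of 18 were higher, where 1.89% were (3.76% in either direction). At an unadjusted limma p under 0.05 the counts were 3 lower and 5 higher, against 8.44% and 8.82% of all tested rows. The median log2 difference of the tested genes was 0.38, or -0.10 without rescaling. These shares and medians describe the genes and were not compared with other lists in a test.

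**Figure D1:**
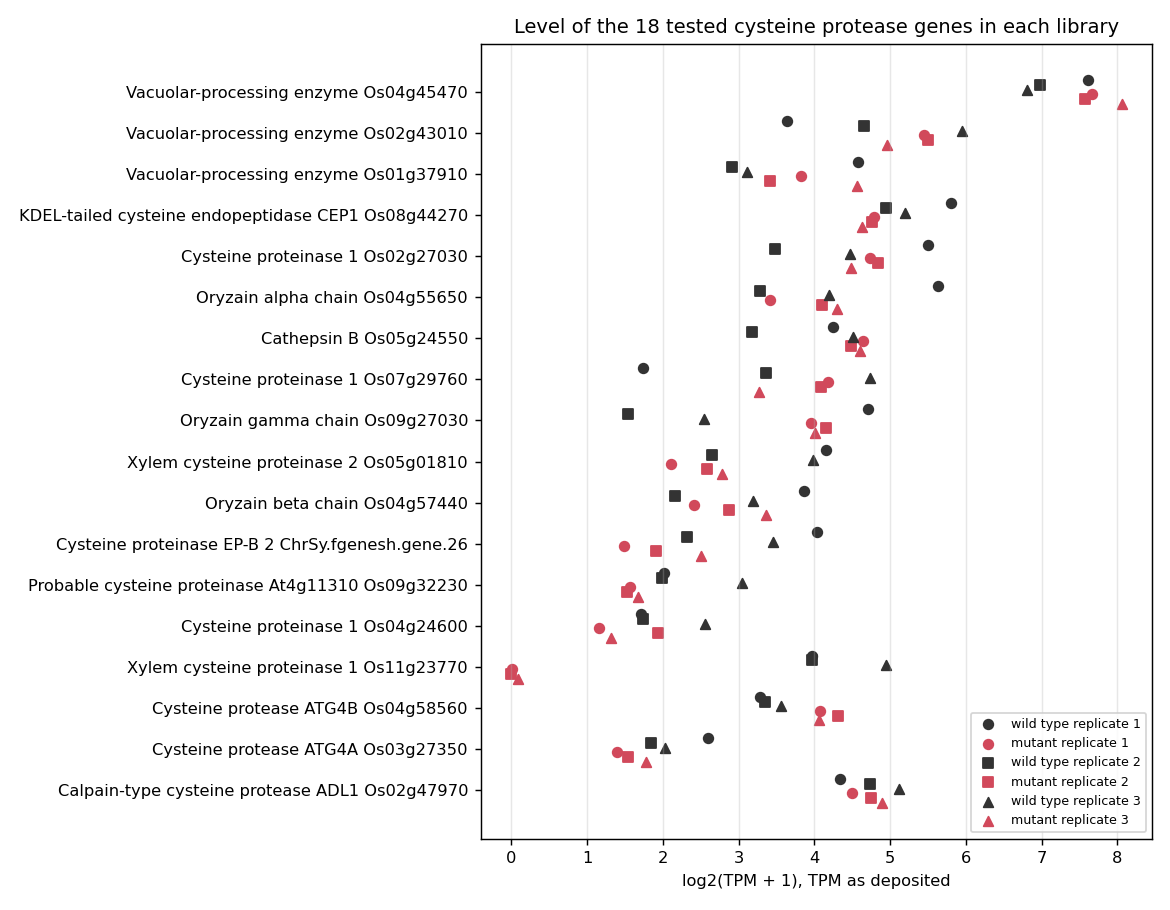
Level of each tested gene in every library, as log2(TPM + 1) of the deposited TPM (x axis), with genes on the y axis grouped by family; dark symbols are wild type, red symbols mutant, and the symbol shape is the replicate. The vacuolar processing enzyme LOC_Os04g45470 lies highest, and the gene LOC_Os11g23770 is near 0 in the mutant and at 14.6 TPM or more in the wild type.

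Among the vacuolar processing enzymes, LOC_Os04g45470 was by far the most abundant. This is OsVPE1, the product of the Glup3 locus, known in rice for the maturation of glutelin. It had 195.4, 125.1 and 110.9 TPM in replicates 1, 2 and 3 of the wild type, the order used for all values below, against 202.4, 188.4 and 265.7 TPM in the mutant. The groups overlapped in TPM, since wild type replicate 1 lay above mutant replicate 2. After rescaling they did not, with 117.7, 147.2 and 90.6 in the wild type and 288, 243 and 249 in the mutant; such a separation with the mutant above held for 3 of the 18 genes and for 10.9% of all tested rows. The mean was 143.8 ± 45.3 TPM in the wild type against 218.8 ± 41.2 TPM in the mutant (SD, n = 3), and the difference of 1.15 ± 0.25 on the log2 scale (SE; 95% interval 0.55 to 1.76) had a limma adjusted p of 0.0658. The gene passed the threshold in 2 of 13 alternatives, with limma adjusted p = 0.0446 with no variance trend and 0.00374 with library weights. Among the others, limma adjusted p was 0.281 with the replicate block and 0.0551 to 0.254 when each library was left out. Without rescaling it was 0.368, where the difference was 0.63. Library weights, which count libraries that scatter more for less, called 12.6% of all tested rows higher and 10.5% lower, and every call gained with them below is to be read against those shares.

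This gene alone supplied 61.7% to 84.3% of the summed TPM of the 5 vacuolar processing enzymes in the wild type libraries and 77.7% to 83.4% in the mutant libraries. It also held 25.8% to 42.4% of the TPM of all 38 genes in the wild type and 43.3% to 52.9% in the mutant. The lowest share in both respects was in wild type replicate 3, the library in which a second gene of the family was highest.

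That gene, LOC_Os02g43010, is also described as a vacuolar-processing enzyme and has the rice beta-isozyme as its nearest deposited protein match. It had 11.5, 24.3 and 61.0 TPM in the wild type against 42.5, 44.4 and 29.97 TPM in the mutant. The mutant values fell inside the wild type range in TPM. After rescaling they were 60.5, 57.4 and 28.1, against 6.90, 28.6 and 49.9 in the wild type, and the groups overlapped. The log2 difference was 1.05 ± 0.69 (SE; 95% interval -0.59 to 2.68; limma adjusted p = 0.462). Leaving out wild type replicate 1, its lowest library, brought it to 0.29.

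The third tested enzyme, LOC_Os01g37910, was lower, at 22.9, 6.55 and 7.62 TPM in the wild type against 13.2, 9.64 and 22.6 TPM in the mutant. Here wild type replicate 1 was the highest of all 6 libraries and the groups overlapped. The log2 difference was 0.89 ± 0.33 (SE; limma adjusted p = 0.237), with adjusted p = 0.0431 with library weights. LOC_Os05g51570 stayed below the filter, with 1.91, 0.32 and 0.24 TPM in the wild type against 0.17, 0.10 and 0.44 TPM in the mutant, and LOC_Os06g01610, described as the alpha-isozyme, was listed at 0 in all libraries.

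Summed over the 5 genes, vacuolar processing enzymes reached 232, 156 and 180 TPM in the wild type against 258, 243 and 319 TPM in the mutant, which did not overlap. LOC_Os04g45470 made up most of each sum, and in TPM the groups of each tested gene of the family overlapped. After rescaling the sums were 140, 184 and 147 against 368, 313 and 299. Their storage substrates varied more between wild type libraries: the 14 rows described as glutelins made up 2.73%, 16.4% and 13.6% of the wild type TPM, against 18.7%, 19.5% and 14.6% for the mutant. Wild type replicate 1 had the least glutelin TPM of its group and, as deposited, the most vacuolar processing enzyme TPM; after rescaling it had the least of both.

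**Figure D2:**
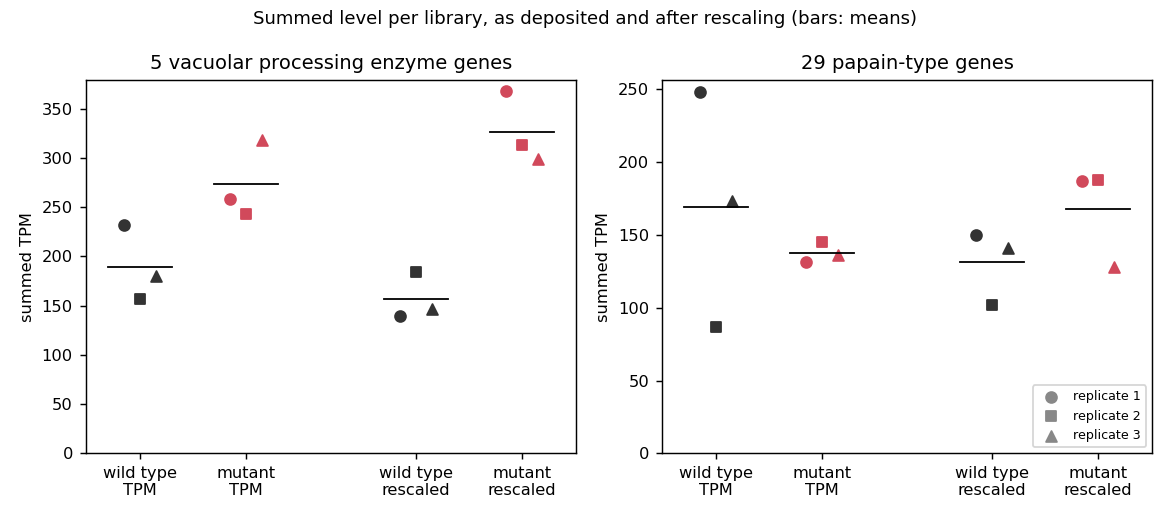
Summed level per library (y axis, TPM) of the 5 vacuolar processing enzyme genes and the 29 papain-type genes, as deposited and after rescaling; each symbol is a library and each bar a group mean. The enzyme sums of the mutant lie above those of the wild type on both scales, while the papain-type sums overlap on both. Most of each enzyme sum is LOC_Os04g45470.

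Of the 3 tested oryzains none was called in the fit on all libraries. Oryzain gamma (LOC_Os09g27030), an aleurain-like protease of the cathepsin H group, had 25.1, 1.92 and 4.82 TPM in the wild type against 14.5, 16.8 and 15.1 TPM in the mutant. The mutant libraries lay close together and above wild type replicates 2 and 3, while wild type replicate 1 was higher than all of them. On the log2 scale they differed by 1.61 ± 0.57 (SE; 95% interval 0.26 to 2.97; limma adjusted p = 0.220). Without wild type replicate 1 it was 2.26 ± 0.27 (SE) with adjusted p = 0.00840, and in none of the other fits that left out 1 library was it called. With library weights it was 2.12 with adjusted p = 0.00304.

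Oryzain alpha (LOC_Os04g55650), which carries a granulin domain behind its protease domain, showed the same high library: 48.8, 8.77 and 17.2 TPM in the wild type against 9.65, 16.2 and 18.8 TPM in the mutant. A difference of 0.07 ± 0.38 on the log2 scale (SE; limma adjusted p = 0.935) turned its sign without rescaling and without wild type replicate 2, wild type replicate 3 or mutant replicate 2. Oryzain beta (LOC_Os04g57440), also with a granulin domain, had 13.6, 3.47 and 8.15 TPM in the wild type against 4.33, 6.36 and 9.25 TPM in the mutant, and differed by 0.28 ± 0.27 on the log2 scale (SE; limma adjusted p = 0.608), or -0.19 without rescaling. For all 3 oryzains wild type replicate 1 was the highest of the 6 libraries in TPM; after rescaling this held for oryzain alpha alone of the 3. Wild type replicate 1 was the highest wild type library in TPM for 10 of the 18 tested genes and for 67.4% of all tested rows, and after rescaling for 6 of 18 and 39.9%. It also had the most TPM of the 2 Rubisco small subunit markers, with 84.45 and 140.9. The light-harvesting marker had 22.1 TPM there, against 35.8 and 29.3 TPM in mutant replicates 2 and 3. A link between these markers and the protease values was not tested. Another 2 genes described as oryzain alpha, LOC_Os04g13090 and LOC_Os07g01800, were listed at 0 throughout.

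Cathepsin B (LOC_Os05g24550), linked in Arabidopsis to programmed cell death and defence, had 17.98, 8.02 and 21.7 TPM in the wild type against a narrow 24.0, 21.5 and 23.4 TPM in the mutant. Wild type replicate 3 lay just above mutant replicate 2. After rescaling the groups did not overlap, with the mutant above, as for 10.9% of all tested rows. The groups differed by 1.11 ± 0.28 on the log2 scale (SE; 95% interval 0.43 to 1.78; limma adjusted p = 0.104), with adjusted p = 0.0290 with library weights and 0.61 as the difference without rescaling.

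The most abundant papain-type gene among the 38, by mean TPM, was LOC_Os08g44270, described as the KDEL-tailed endopeptidase CEP1, an enzyme of programmed cell death in Arabidopsis anthers. It had 55.1, 29.8 and 35.7 TPM in the wild type against 26.6, 26.1 and 23.7 TPM in the mutant. All mutant libraries lay below the wild type in TPM, as for 4 of the 18 genes and 17.0% of all tested rows, but not after rescaling. Its log2 difference, -0.08 ± 0.24 (SE; limma adjusted p = 0.877), turned its sign with library weights and without mutant replicate 3.

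LOC_Os02g27030, described after the maize cysteine proteinase 1, had 44.4, 10.1 and 21.3 TPM in the wild type against 25.7, 27.8 and 21.4 TPM in the mutant. Wild type replicates lay on both sides of the mutant in TPM. The log2 difference was 0.72 ± 0.36 (SE, limma adjusted p = 0.360, or 0.0221 with library weights). The other 2 tested genes of that description, LOC_Os07g29760 and LOC_Os04g24600, ranged from 2.34 to 25.7 TPM and from 1.23 to 4.90 TPM, and their adjusted p were 0.554 and 0.825. Summed over the 29 papain-type genes, levels were 249, 86.9 and 173 TPM in the wild type against 131, 145 and 136 TPM in the mutant. As deposited, the mutant sums thus lay inside the wild type range. After rescaling the sums were 150, 102 and 141 against 187, 188 and 128. On that scale mutant replicates 1 and 2 lay above every wild type library, and mutant replicate 3 did not.

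**Figure D3:**
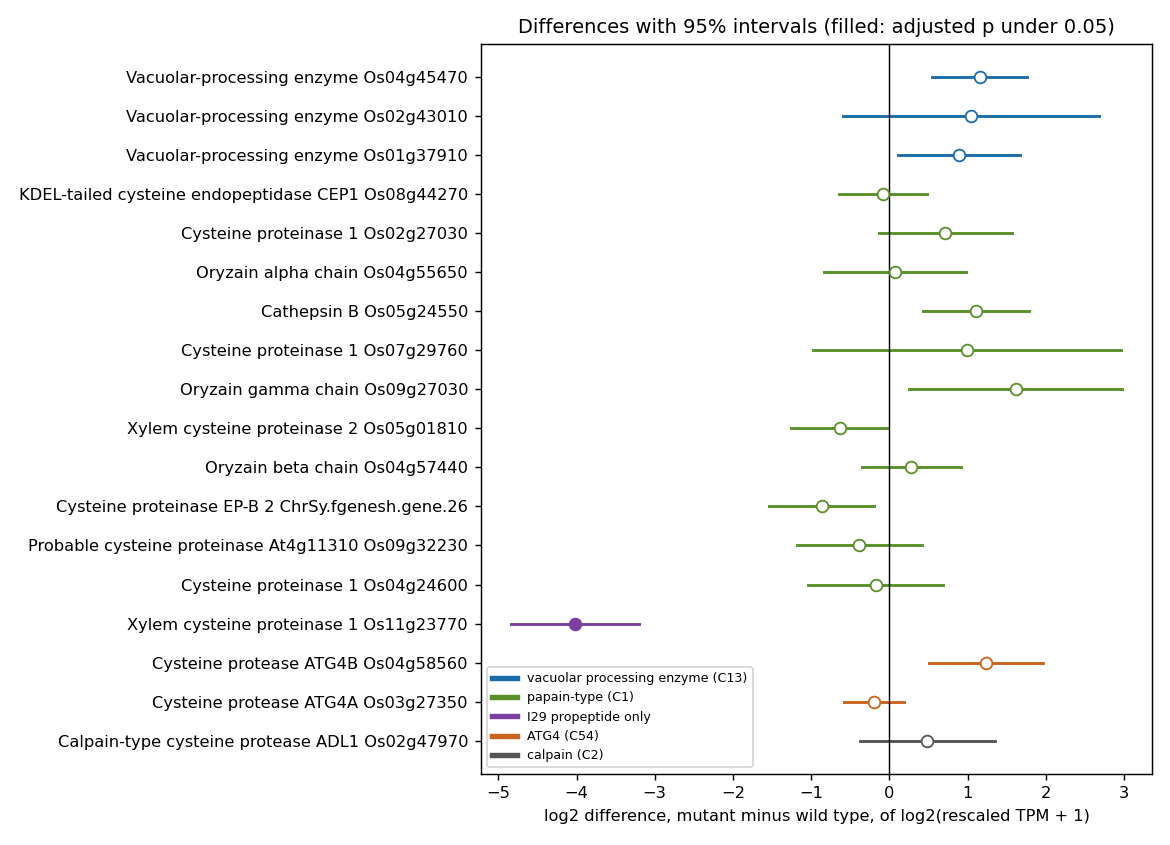
Log2 difference between mutant and wild type of log2(rescaled TPM + 1) for each tested gene (x axis), with 95% intervals; colours give the family, and a filled point marks a limma adjusted p under 0.05. The point of LOC_Os11g23770, at -4.02, is the filled one, and the intervals of 8 genes leave out 0.

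The gene that fell was LOC_Os11g23770 on chromosome 11. It had 14.7, 14.6 and 29.8 TPM in the wild type against 0.01, 0 and 0.06 TPM in the mutant. Each wild type library was far above each mutant library. Means were 19.7 ± 8.76 TPM for the wild type and 0.023 ± 0.032 TPM for the mutant (SD, n = 3), which on the log2 scale differed by -4.02 ± 0.34 (SE; 95% interval -4.84 to -3.20; limma adjusted p = 0.00121). The gene remained called in all 13 alternatives, with adjusted p from 1.47e-05 to 0.0145, and its difference was -7.01 with a pseudocount of 0.1 TPM.

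The deposited name of LOC_Os11g23770, xylem cysteine proteinase 1, comes from an Arabidopsis protease of the dying vessel cell. The other deposited annotation is less specific: the only domain listed is the I29 propeptide, with no protease domain, and the nearest protein match is a putative ananain precursor. Whether the transcript encodes an active protease was not tested. Among the 38 genes it was the only one with the I29 domain and no listed protease domain.

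A second gene named after a xylem protease, LOC_Os05g01810, described as xylem cysteine proteinase 2, had 16.8, 5.26 and 14.8 TPM in the wild type against 3.32, 4.99 and 5.87 TPM in the mutant. The groups overlapped at wild type replicate 2. This was -0.64 ± 0.26 as a log2 difference (SE; limma adjusted p = 0.2802, or 0.0434 with library weights).

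EP-B proteases are known from barley, where the aleurone of the germinating grain secretes them to digest hordein. In these grains 1 of the 7 genes described as EP-B was tested, ChrSy.fgenesh.gene.26, a gene model placed on no numbered chromosome. It had 15.4, 4 and 9.95 TPM in the wild type against 1.81, 2.77 and 4.68 TPM in the mutant. The groups overlapped in TPM and not after rescaling, and the log2 difference was -0.87 ± 0.28 (SE; 95% interval -1.54 to -0.19; limma adjusted p = 0.191, or 0.0145 with library weights). Its nearest deposited protein match is fruit bromelain. LOC_Os01g42790, the EP-B 1 gene, stayed below the filter at 1.49, 0.26 and 0.51 TPM in the wild type against 0.03, 0.59 and 0.23 TPM in the mutant. The other 5 EP-B genes were at most 0.20 TPM in any library.

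LOC_Os09g32230, described after an Arabidopsis proteinase and closest to the senescence protease SAG12, had 3.04, 2.97 and 7.29 TPM in the wild type against 1.97, 1.89 and 2.18 TPM in the mutant. In TPM the groups did not overlap, with the mutant below, as for 17.0% of all tested rows. After rescaling they overlapped, with 1.83, 3.50 and 5.96 in the wild type and 2.81, 2.44 and 2.05 in the mutant. The log2 difference was -0.38 ± 0.33 (SE, limma adjusted p = 0.571, or 0.0312 with library weights). Other genes linked to leaf senescence or drought elsewhere were scarce: the 3 SEN102 genes, named after a daylily senescence protease, were at most 0.17 TPM, and the RD21a gene LOC_Os05g43230 was between 0.29 and 1.08 TPM.

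The means of the ATG4 pair differed in opposite directions. ATG4B (LOC_Os04g58560) had 8.71, 9.15 and 10.8 TPM in the wild type against 15.8, 18.9 and 15.6 TPM in the mutant. It was the 1 gene of the 18 whose mutant libraries all lay above the wild type in TPM, as 4.59% of all tested rows did. Its log2 difference was 1.23 ± 0.31 (SE; 95% interval 0.51 to 1.96; limma adjusted p = 0.0954), with adjusted p = 0.00521 with library weights and 0.262 without rescaling.

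ATG4A (LOC_Os03g27350) had 5.04, 2.58 and 3.10 TPM in the wild type against 1.63, 1.92 and 2.43 TPM in the mutant. Again the groups did not overlap, but with the mutant below, as for 17.0% of all tested rows in TPM. Its log2 difference was -0.20 ± 0.16 (SE; 95% interval -0.58 to 0.18; limma adjusted p = 0.538). The difference between the responses of the 2 genes was not tested. The calpain ADL1 (LOC_Os02g47970) had group means close to each other, with 19.2, 25.7 and 33.8 TPM in the wild type against 21.5, 25.99 and 28.8 TPM in the mutant, and a log2 difference at 0.48 ± 0.36 (SE, limma adjusted p = 0.511).

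**Figure D4:**
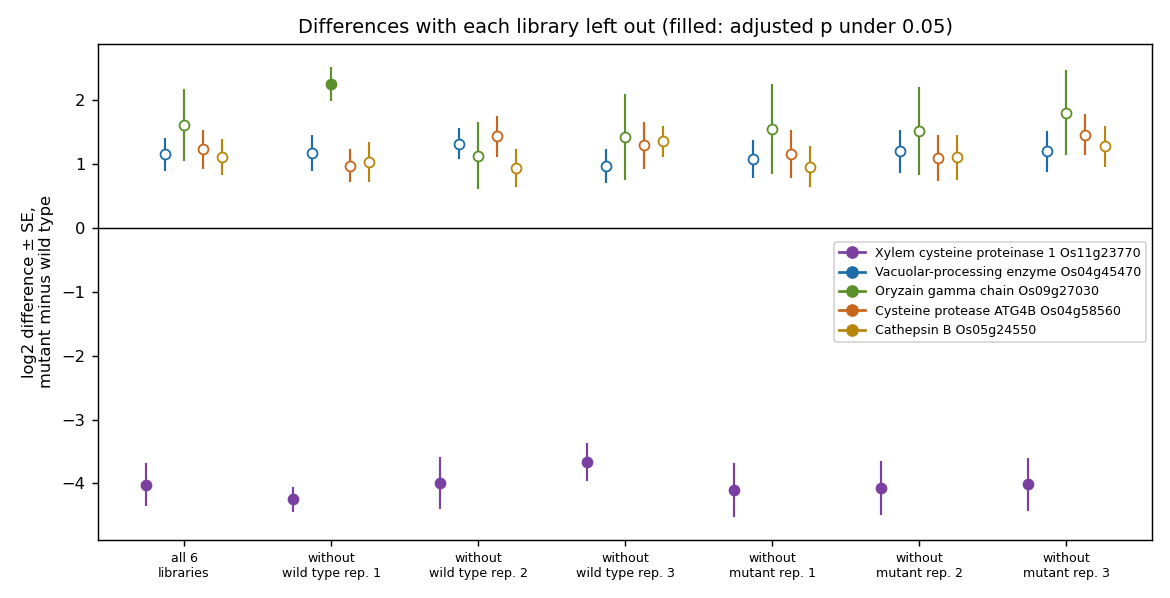
Log2 difference (y axis, ± SE) of 5 genes in the fit on all 6 libraries and in fits with each library left out (x axis); filled points have a limma adjusted p under 0.05. LOC_Os11g23770 stays between -4.25 and -3.66 and is filled throughout, and oryzain gamma is filled only without wild type replicate 1.

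Genes that work beside these proteases were counted in lists chosen by description. Of all tested rows 1.89% were higher and 1.87% lower by the limma test. The shares were 8.82% and 8.44% at an unadjusted limma p under 0.05. Cystatins, the protein inhibitors of papain-type proteases, had 7 of 12 rows tested, with 0 higher and 0 lower and a median log2 difference of 0.36; at an unadjusted limma p under 0.05 the count was also 0. The cystatin 1 gene LOC_Os01g58890 (0.48, limma adjusted p = 0.595) and the cystatin 12 gene LOC_Os01g16430 (0.38, limma adjusted p = 0.613) had the smallest p, and both differences were below 0 without rescaling. LOC_Os01g16430 had 57.6, 55.2 and 95.7 TPM in the wild type against 65.1, 62.9 and 55.6 TPM in the mutant, which overlapped.

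Of the 13 tested glutelin genes 0 were called by limma, where 3.76% of all tested rows were. Counts at an unadjusted limma p under 0.05 were 1 higher and 0 lower, against 8.82% and 8.44% of all tested rows. Their median log2 difference was 1.34. LOC_Os02g15150 (glutelin type-B 2) had 1.096 with limma adjusted p = 0.270, and LOC_Os02g16830 (glutelin type-B 4) 2.63 with 0.389; without wild type replicate 1 these were 0.67 and 0.98. Of 6 tested vacuolar sorting receptors, which carry proteins to the vacuole, 0 were called. Counts at an unadjusted limma p under 0.05 were 1 higher and 0 lower, against the same shares, and the median was 0.19. Receptor 3 (LOC_Os10g20630) had 0.68 with limma adjusted p = 0.194, and receptor 1 (LOC_Os11g02464) 0.23 with 0.608.

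Among 25 tested aspartic proteases 1 rose, where 1.89% of all tested rows did, and 0 fell. At an unadjusted limma p under 0.05 the counts were 4 higher and 0 lower, against 8.82% and 8.44% of all tested rows. The median log2 difference was 0.24. The gene that rose, LOC_Os04g15550, was listed at 0 in each wild type library and had 5.65, 5.47 and 8.95 TPM in the mutant (limma adjusted p = 0.000105). It is described as oryzasin-1, a seed aspartic protease, but its nearest deposited protein match is a hydroxyproline arabinosyltransferase, so its name is uncertain. The Asp1 gene LOC_Os06g15760 had 0.68 with limma adjusted p = 0.137.

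Among 18 tested serine carboxypeptidases 1 fell, where 1.87% of all tested rows did, and 0 rose. At an unadjusted limma p under 0.05 the counts were 3 higher and 1 lower, against 8.82% and 8.44% of all tested rows. The median log2 difference was 0.11. The gene that fell, LOC_Os11g24180, described as carboxypeptidase-like 18, had 33.1, 15.6 and 9.73 TPM in the wild type against 1.66, 1.65 and 1.71 TPM in the mutant. Its log2 difference was -2.35 ± 0.35 (SE; limma adjusted p = 0.0134), and adjusted p was 0.0604, 0.0705 and 0.0657 without mutant replicates 1, 2 and 3. LOC_Os04g09720, carboxypeptidase-like 19, had 0.75 with limma adjusted p = 0.129. Of 4 tested metacaspases, distant relatives of caspases, 0 were called and 0 had an unadjusted p under 0.05; the median was -0.17. Metacaspase-1 (LOC_Os03g27120) had 15.9, 0.35 and 1.30 TPM in the wild type against 2.61, 2.72 and 3.35 TPM in the mutant; its log2 difference of 0.51 (limma adjusted p = 0.728) was 1.34 without wild type replicate 1 (limma adjusted p = 0.0230). Metacaspase-4 (LOC_Os01g58580) had -0.21 with limma adjusted p = 0.689.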

How the data were processed

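Messenger RNA of rice grains was sequenced in 3 wild type and 3 mutant libraries. A SMARTER kit was used on total RNA, per the labels. The authors deposited TPM with 2 decimals, although the table's name speaks of counts. The submitters' processing notes list Bowtie2, DESeq2 1.12.4, HISAT2 2.1.0, RSEM and StringTie without roles, and a mouse build, mm10, that does not match the rice locus IDs; the build is therefore not given in the sources used here. Library totals ran from 967528 to 991476 TPM, and the depth is unknown. Mutant columns are named sg31, sg32 and sg33 and were matched to sg34 replicates by number. There were 0 other columns of single libraries. No libraries were near copies (highest correlation of log2 values 0.969).

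Rows with at least 1 TPM in 3 libraries (16917 of 55986) were divided by unweighted trimmed mean factors (30% of M and 5% of A values trimmed), transformed as log2(TPM + 1) and tested with limma 3.58.1 in R 4.3.3, with a variance trend and Benjamini-Hochberg adjustment at 0.05. The procedure was also run on simulated data with independent noise in each row and library. That run held no deviation shared by many rows of a library beyond a scale factor, so it cannot show how the calls bear one. Alternatives changed the pseudocount, filter, scaling, trend, library weights and replicate block, or left out 1 library on the same rows. Genes were chosen, and lists fixed, with earlier results of these data known. Named with values were the called genes, the 8 most abundant, the tested vacuolar processing enzymes and oryzains, the 3 highest and 3 lowest uncalled differences, genes with no overlap, a 2-fold difference and 5 TPM, and the 2 highest untested genes, and in each other list the called genes and those of smallest p, 2 in all; the others named in the report were added after their values were seen. Names are deposited descriptions and chromosomes were read from locus IDs. The papain-type genes may share reads with near copies, which was not measured. Libraries were not treated as paired by replicate number, except in the replicate block.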

Additional observations from a re-analysis of the deposited data

How the results depend on the processing

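The count of genes that fell was 1 in the limma fit and 1 in each alternative but library weights, where it was 4 (10.5% of all tested rows, against 1.87%); LOC_Os11g23770 was among them each time. The count of genes that rose was 0, but 1 with no variance trend (LOC_Os04g45470) and 6 with library weights (12.6% of all tested rows, against 1.89%), and 0 to 1 when each library was left out in turn, the 1 being oryzain gamma without wild type replicate 1. The cause of the gain with library weights was not tested. With the replicate block the counts were 0 and 1, and the block changed no call of the 18 genes. Same-numbered libraries had deviations from their group means that correlated at -0.54, 0.003 and -0.37, so they did not deviate together. Whether they were prepared in pairs cannot be read from these values.

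Signs turned without rescaling for LOC_Os02g47970 (-0.018), LOC_Os04g55650 (-0.43), LOC_Os04g57440 (-0.19), LOC_Os01g58890 (-0.03), LOC_Os01g16430 (-0.14) and LOC_Os11g02464 (-0.27). With library weights they turned for LOC_Os08g44270 (0.12), LOC_Os01g58580 (0.20) and LOC_Os04g48710 (0.022). Among fits without a library, LOC_Os08g44270 ranged from -0.23 to 0.16, LOC_Os04g55650 from -0.24 to 0.48, LOC_Os01g58890 from -0.007 to 0.76, LOC_Os01g58580 from -0.45 to 0.024, LOC_Os03g27120 from -0.067 to 1.34 and LOC_Os04g48710 from -0.46 to 0.27. Library weights also brought LOC_Os10g20630, LOC_Os04g09720, LOC_Os02g15150 and LOC_Os06g15760 past the threshold (limma adjusted p 0.0170 to 0.0222). No filter tested 30 of the 38 genes and a filter of 5 TPM tested 14. Depth is unknown, so the precision of genes of a few TPM rests on the spread of 3 libraries.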

Other observations

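Rows that carry a domain of these families under another name were looked at after values had been seen. There were 43 such rows, 7 of them tested, with 1 higher and 0 lower by limma; 3.76% of all tested rows were called in either direction. The most abundant was LOC_Os09g39170, described as mexicain, with a papain-type domain. It had 588, 325 and 776 TPM in the wild type against 126.1, 123.1 and 233 TPM in the mutant, in each wild type library more than any of the 38 genes. All mutant libraries lay below the wild type, and the log2 difference was -1.26 ± 0.31 (SE; limma adjusted p = 0.0957, or 0.00259 with library weights). It sits on chromosome 9 close to the locus IDs of the 3 SEN102 genes, which were at most 0.17 TPM, and of an EP-B 2 gene listed at 0. LOC_Os04g48710, with no name and a papain-type domain, had 49.3, 8.70 and 19.9 TPM in the wild type against 8.57, 12.4 and 21.1 TPM in the mutant (log2 difference -0.12, limma adjusted p = 0.895), with wild type replicate 1 highest in TPM, as for the oryzains.

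The row that rose was LOC_Os04g40180 on chromosome 4, which has no name and, like LOC_Os11g23770, lists the I29 propeptide domain alone; its nearest deposited protein match is the barley EP-B 2 protease. It had 0.20, 0.12 and 0.06 TPM in the wild type against 15.8, 21.5 and 32.6 TPM in the mutant, which differed by 4.65 ± 0.18 on the log2 scale (SE; limma adjusted p = 3.52e-05). So the rows with the propeptide domain alone that were called moved in opposite directions, LOC_Os11g23770 at -4.02 and this one at 4.65. Of the 3 nearest tested rows on each side of LOC_Os04g40180 by locus ID, LOC_Os04g40190 (2.92, limma adjusted p = 0.000229) and LOC_Os04g40150 (1.07, limma adjusted p = 0.0320) were also higher. Of those around LOC_Os11g23770, LOC_Os11g23890 was higher (2.19, limma adjusted p = 0.0197) and the other 5 were not called.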
